A study of Mus musculus with 6 samples.

Results

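The antiviral effector genes of the type I interferon (IFN) response were examined in liver sinusoidal endothelial cells (LSECs), the fenestrated endothelium that lines the liver sinusoids and clears waste molecules from blood. The set was a fixed list of 48 gene symbols, found in the table by symbol. The list was drawn up with earlier results of these data known, so its shares are descriptions and not independent evidence. The table named 46 of them among its 24479 genes. Ifit3b and Ifi44 were not analysed here, and Rigi was found under its older symbol Ddx58. LSECs came from Lyve-1-KO mice of the strain B6.129S1-Lyve1tm1Lhua/J, a constitutive knockout of Lyve1, which encodes a hyaluronan receptor of lymphatic endothelium and LSECs. Control (Ctrl) LSECs came from wild-type C57BL/6J mice. The methods name both littermates and purchased mice as controls and do not say which supplied these pools. Each group held 3 pools, each pool combined cells of 3 mice, and each pool gave 1 array. Neither group received a treatment, and the labels give neither age nor sex for the arrays. Since the knockout is constitutive, effects that arise in LSECs and effects that reach them from other cells cannot be told apart.

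Type I interferons bind the receptor IFNAR1/IFNAR2 and activate the kinases JAK1 and TYK2. Signalling then passes through the factor ISGF3, of which STAT2 and IRF9 are subunits. ISGF3 binds the interferon-stimulated response element (ISRE) in the promoters of effector genes, whose products block viral entry, degrade RNA, halt translation or tag proteins. LSECs meet microbial products from the gut through portal blood, and a low tonic level of the response is known in healthy tissue.

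The values were log2 expression levels on a common scale for the 6 arrays, with an array median of 5.04. Lyve1 itself showed no loss of signal with the knockout label. It read 12.85, 12.88 and 12.83 in Lyve-1-KO arrays and 12.78, 12.69 and 12.84 in Ctrl, a log2 difference of 0.08 (limma, adjusted p = 0.663). Where the Lyve1 probes lie relative to the deleted part was not analysed here, so this signal does not check the labels, and the Lyve-1-KO arrays are called KO-labelled. The study itself reports loss of Lyve-1 protein in liver tissue of the knockout mice, by western blot and immunofluorescence. The 14 LSEC markers, which include Lyve1, averaged 12.75 ± 0.02 in KO-labelled and 12.78 ± 0.01 in Ctrl arrays (log2 level, SD, n = 3 each). All 14 lay above the array median. Xist lay near the bottom of the scale at 3.48 to 3.65, and the mean of 3 Y-linked genes was 7.83 to 7.95 over the 6 arrays. Of these 3, Uty was apart upwards by 0.28 (limma adjusted p = 0.232). Kdm5d and Eif2s3y differed by 0.05 and -0.09 with overlap.

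RefSeq promoters (GRCm38.p6, 250 bases before to 50 after the transcription start) were at hand for 34 of the 46 members. The core letters of the ISRE, GAAANNGAAA on either strand, occurred in 17 of the 34 (50%), against 1079 of 27025 genes (3.99%). The letters TTCNNNGAA of the GAS element, another interferon-responsive motif that may share bases with an ISRE, occurred in 10 of the 34 (29.4%), against 9.55% of genes. A match describes letters and is not a measured binding site. The 4 promoters printed here belong to members whose 3 KO-labelled values all lay above the 3 Ctrl values. They show the element in several arrangements, 5′ to 3′ on the strand of the gene, with ISRE letters in capitals.
Isg15, chr4:156200769-156201068 (minus strand): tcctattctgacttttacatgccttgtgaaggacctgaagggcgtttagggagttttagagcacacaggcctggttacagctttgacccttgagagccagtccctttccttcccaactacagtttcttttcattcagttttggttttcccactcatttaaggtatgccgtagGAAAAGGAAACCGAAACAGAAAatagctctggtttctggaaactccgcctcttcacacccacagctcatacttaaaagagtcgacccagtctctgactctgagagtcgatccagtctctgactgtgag
Ddx60, chr8:61927837-61928136 (plus strand): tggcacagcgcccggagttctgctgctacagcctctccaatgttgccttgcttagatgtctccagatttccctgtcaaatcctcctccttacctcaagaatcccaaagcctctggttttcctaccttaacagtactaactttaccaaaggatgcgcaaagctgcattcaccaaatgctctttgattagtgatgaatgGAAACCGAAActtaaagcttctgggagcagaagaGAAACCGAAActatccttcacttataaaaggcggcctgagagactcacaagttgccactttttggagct
Rsad2, chr12:26456403-26456702 (minus strand): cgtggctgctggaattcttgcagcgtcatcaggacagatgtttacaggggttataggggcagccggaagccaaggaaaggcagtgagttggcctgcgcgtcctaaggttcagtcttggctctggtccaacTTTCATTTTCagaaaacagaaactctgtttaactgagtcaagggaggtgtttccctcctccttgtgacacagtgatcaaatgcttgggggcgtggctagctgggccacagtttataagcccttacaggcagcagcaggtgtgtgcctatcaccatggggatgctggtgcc
Stat2, chr10:128270248-128270547 (plus strand): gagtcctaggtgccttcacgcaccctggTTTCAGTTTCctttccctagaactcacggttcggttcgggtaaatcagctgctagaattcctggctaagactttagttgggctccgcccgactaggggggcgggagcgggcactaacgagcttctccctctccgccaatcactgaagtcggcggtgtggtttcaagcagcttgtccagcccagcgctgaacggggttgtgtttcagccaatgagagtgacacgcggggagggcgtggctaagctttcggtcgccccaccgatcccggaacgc
In Isg15 3 matches overlapped in an unbroken run that began at -78 from the transcription start. Ddx60 held the same 10 letters, GAAACCGAAA, at 2 places, of which the more distant began at -53. Rsad2 and Stat2 each held 1 match on the opposite strand, at -120 and -222. ISRE letters were found in 5 of 10 members with a promoter whose groups did not overlap and in 12 of 24 whose groups overlapped. Ifit2, Irf1, Irf9, Isg20 and Oasl2 had values that did not overlap and no ISRE letters in the windows searched.

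Most effector genes read slightly higher in KO-labelled than in Ctrl LSECs, by less than most single genes could resolve with 3 arrays per group. Of the 46 members 38 had a log2 difference above 0, against 48.9% of all genes, and the median difference was 0.14, against -0.00 for all genes. The differences ran from -0.08 for Epsti1 to 0.90 for Mx2. No member passed an adjusted p of 0.05 (limma, Benjamini-Hochberg over all 24479 genes), where 0.00409% of all genes were called higher and 0% lower. The lowest adjusted p of a member was 0.182, for Irf9, and the methods' test also called 0 members. At an unadjusted p of 0.05, 13 members (28.3%) were higher, against 5.87% of all genes, and 0 were lower, against 5.33%. The 3 KO-labelled values lay above all 3 Ctrl values in 12 members (26.1%), against 8.71% of all genes, and below them in 0, against 8.73%. Together, 11 members met both criteria and 14 met either. For the 12 members without overlap the exact two-sided permutation p was 0.1, the smallest that 3 against 3 arrays allow.

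**Figure D1:**
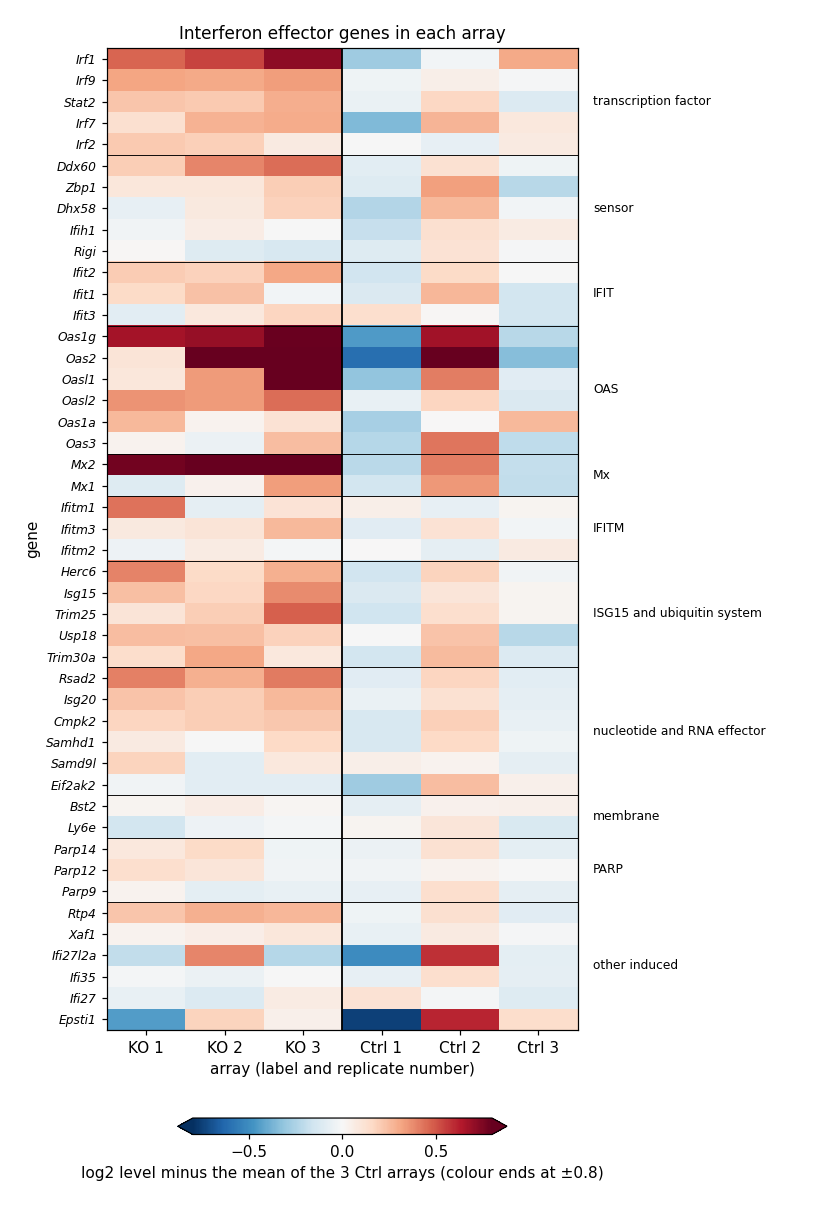
Each row is a member and each column an array. The colour gives the log2 level minus the mean of the 3 Ctrl arrays of that gene, with genes grouped by role and the colour scale ending at ±0.8. Red prevails in the 3 KO-labelled arrays and in Ctrl 2, and blue in Ctrl 1 and, less strongly, in Ctrl 3.

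Transcription factors of the response were the role with the most members apart. The KO-labelled values lay above all Ctrl values in 4 of 5 (80%, against 8.71% of all genes). Irf9, the DNA-binding subunit of ISGF3, read 9.94, 9.93 and 9.96 in KO-labelled arrays and 9.60, 9.68 and 9.62 in Ctrl. The groups were separated by several times the spread within them. The log2 difference was 0.32 (SE 0.06, 1.25-fold, limma unadjusted p = 0.000917, adjusted p = 0.182).

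Stat2, its transactivating partner, read 10.21, 10.20 and 10.28 in KO-labelled arrays and 9.94, 10.16 and 9.88 in Ctrl. The KO-labelled values stood close together, and Ctrl 2 reached almost to them. The log2 difference was 0.24 (SE 0.09, limma adjusted p = 0.394).

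Irf1, an activator that both interferon and NF-κB signals induce, read 10.91, 10.98 and 11.16 in KO-labelled arrays and 10.15, 10.42 and 10.75 in Ctrl. Here Ctrl 3, and not Ctrl 2, was the highest control. The log2 difference was 0.57 (SE 0.15, 1.49-fold, limma adjusted p = 0.283).

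Irf2, which competes with IRF1 for its sites, read 9.85, 9.84 and 9.72 in KO-labelled arrays against 9.64, 9.58 and 9.71 in Ctrl. The groups were apart by only the gap between the lowest KO-labelled value and Ctrl 3, and the difference of 0.16 had an unadjusted p of 0.0579 in limma. Irf7, which amplifies IFN-α production, overlapped between groups with a difference of 0.23 (95% interval -0.13 to 0.60).

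Among sensors of foreign nucleic acid, only Ddx60, an RNA helicase that aids RIG-I signalling, was apart. It read 7.19, 7.39 and 7.45 in KO-labelled arrays and 6.91, 7.12 and 6.96 in Ctrl, a log2 difference of 0.35 (SE 0.09, limma adjusted p = 0.286). The cytosolic RNA sensors themselves overlapped between groups. Rigi, the gene of RIG-I, read 10.23, 10.12 and 10.10 against 10.12, 10.34 and 10.21, a difference of -0.07 (95% interval -0.26 to 0.12). Ifih1, which encodes MDA5, differed by 0.01, Dhx58, which encodes LGP2, by 0.07, and Zbp1, a sensor of Z-form nucleic acid, by 0.13.

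Among the IFIT genes, whose products bind viral RNA and block its translation, Ifit2 read 8.91, 8.89 and 9.01 in KO-labelled arrays and 8.55, 8.86 and 8.70 in Ctrl. Its groups were apart by the small gap to Ctrl 2, with a difference of 0.23 (SE 0.09, limma adjusted p = 0.422). Its neighbours on chromosome 19, Ifit1 and Ifit3, overlapped between groups, with differences of 0.12 and 0.06.

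The OAS family, which makes the oligoadenylate that activates RNase L, held large differences and a large spread among controls. Oasl2, an OAS-like gene, read 10.31, 10.29 and 10.40 in KO-labelled arrays and 9.89, 10.12 and 9.84 in Ctrl. This was the only OAS member whose groups were apart, with a difference of 0.38 (SE 0.09, limma adjusted p = 0.25).

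Oas1g read 8.25, 8.28 and 8.38 in KO-labelled arrays but 7.13, 8.26 and 7.37 in Ctrl. Ctrl 2 lay among the KO-labelled values, and the other controls lay below all of them. The log2 difference was 0.72 (SE 0.27, 1.64-fold, limma adjusted p = 0.408), and without Ctrl 2 it was 1.05.

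Oas2, singled out after its values were seen, showed the same order among controls. It read 6.97, 7.69 and 7.72 against 6.27, 7.81 and 6.53, a difference of 0.59 with a 95% interval of -0.39 to 1.57. Oasl1, Oas1a and Oas3 differed by 0.42, 0.13 and 0.08, with overlap in each. All 6 lie on chromosome 5. The promoters of Oas1a and Oas1g are shown because the genes are close copies. They shared 261 of 306 alignment columns (85.3%) and the same overlapping pair of ISRE matches, beginning at -20 in Oas1a and -18 in Oas1g, on 2 genes whose differences were 0.13 and 0.72.
Oas1a, chr5:120907476-120907775 (minus strand): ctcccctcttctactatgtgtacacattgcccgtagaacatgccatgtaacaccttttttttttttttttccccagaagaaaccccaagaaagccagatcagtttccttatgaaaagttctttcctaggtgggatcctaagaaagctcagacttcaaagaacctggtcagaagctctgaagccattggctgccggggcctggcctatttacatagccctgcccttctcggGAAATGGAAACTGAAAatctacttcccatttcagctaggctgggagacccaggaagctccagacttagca
Oas1g, chr5:120887564-120887863 (minus strand): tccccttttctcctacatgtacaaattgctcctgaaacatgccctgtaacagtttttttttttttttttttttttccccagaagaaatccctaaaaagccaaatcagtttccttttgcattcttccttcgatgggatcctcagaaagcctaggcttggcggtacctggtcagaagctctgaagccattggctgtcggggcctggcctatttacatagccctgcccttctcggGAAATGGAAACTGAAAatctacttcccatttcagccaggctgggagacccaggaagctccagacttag
Whether the probes tell the copies apart was not analysed here, so the values of Oas1a and Oas1g are uncertain to that extent.

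Mx2 had the largest difference of the set. Mx genes encode dynamin-like GTPases that trap viral nucleocapsids, and the reference annotation of C57BL/6J (GRCm38.p6) lists both mouse copies as transcribed pseudogenes. Mx2 (chr16:97536081-97560901) read 7.80, 7.84 and 8.15 in KO-labelled arrays and 6.81, 7.43 and 6.83 in Ctrl. All KO-labelled values lay above all controls, with Ctrl 2 again the highest control. The log2 difference was 0.90 (95% interval 0.47 to 1.34, 1.87-fold, limma adjusted p = 0.211). Mx1 lay below the array median, at 3.73 to 4.28 over the 6 arrays, and differed by 0.09 with overlap.

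Of the IFITM genes, whose products sit in membranes and restrict viral entry, 0 of 3 had groups that were apart. Ifitm3 read 12.35, 12.37 and 12.53 in KO-labelled arrays and 12.18, 12.38 and 12.24 in Ctrl, a difference of 0.15 (95% interval -0.05 to 0.34). Ifitm1 read 7.23, 6.72 and 6.90 against 6.84, 6.73 and 6.82, a difference of 0.16 that was 0.02 without KO-labelled 1. Ifitm2 differed by 0.00 (95% interval -0.15 to 0.16).

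In the ISG15 and ubiquitin system all 5 members had differences above 0. Isg15, a ubiquitin-like protein that is joined to viral and host proteins, read 6.67, 6.59 and 6.80 in KO-labelled arrays and 6.31, 6.52 and 6.44 in Ctrl. The groups were apart, with a difference of 0.26 (SE 0.08, limma adjusted p = 0.355). Herc6, the main ISG15 ligase of the mouse, read 9.29, 9.05 and 9.18 against 8.74, 9.08 and 8.87. It overlapped by Ctrl 2 alone, with a difference of 0.28 (SE 0.11, limma adjusted p = 0.415).

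Trim25, a ubiquitin ligase that acts on RIG-I, read 9.88, 9.98 and 10.26 in KO-labelled arrays and 9.62, 9.92 and 9.81 in Ctrl, a difference of 0.26 with overlap. Usp18, which removes ISG15 and damps signalling at IFNAR2, differed by 0.22 and Trim30a by 0.18, both with overlap. Trim30a is also the member nearest to the Lyve1 locus, 6.39 Mb away on chromosome 7, where sequence of the strain that supplied the allele may accompany it. The other 5 members on that chromosome lay 30.1 to 31.9 Mb from Lyve1. The part of linked sequence in these values was not tested.

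Among effectors that act on nucleotides and RNA, Rsad2 and Isg20 were apart. Rsad2, whose product viperin turns CTP into a chain terminator, read 10.84, 10.73 and 10.86 in KO-labelled arrays and 10.35, 10.61 and 10.36 in Ctrl. The difference was 0.37 (SE 0.09, 1.29-fold, limma adjusted p = 0.265). Its neighbour on chromosome 12, Cmpk2, a mitochondrial nucleotide kinase, differed by 0.19, with Ctrl 2 among the KO-labelled values.

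Isg20, an RNA exonuclease, read 9.16, 9.13 and 9.19 in KO-labelled arrays and 8.88, 9.05 and 8.86 in Ctrl, a difference of 0.23 (SE 0.07, limma adjusted p = 0.346). The KO-labelled arrays differed little among themselves. Samhd1, which degrades deoxynucleotides, and Samd9l, a restriction factor, differed by 0.08 and 0.06. Eif2ak2, the kinase PKR that halts translation, differed by -0.07 (95% interval -0.38 to 0.24).

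None of the membrane and PARP effectors had groups that were apart. Ly6e, a lipid-anchored surface protein, read 12.74, 12.85 and 12.87 in KO-labelled arrays and 12.91, 12.99 and 12.77 in Ctrl, a difference of -0.07 (95% interval -0.26 to 0.12). Bst2, the tetherin that holds budding virions, differed by 0.03 (95% interval -0.11 to 0.18). The ADP-ribosyltransferase gene Parp14 read 10.79, 10.87 and 10.68 against 10.67, 10.83 and 10.63, a difference of 0.07, and Parp9 and Parp12 differed by -0.04 and 0.07.

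Of the 6 remaining induced genes only Rtp4, a chaperone of surface receptors that also binds viral RNA, was apart. It read 10.26, 10.32 and 10.30 in KO-labelled arrays and 10.00, 10.16 and 9.94 in Ctrl, a difference of 0.26 (SE 0.08, limma adjusted p = 0.32). Epsti1 and Ifi27l2a, singled out after their values were seen, varied most among controls within these 6 genes. Epsti1 read 5.60, 6.96 and 6.49 in Ctrl, so that the 3 KO-labelled values of 5.91, 6.53 and 6.39 lay inside the control range. Ifi27l2a read 5.41, 6.50 and 5.83 in Ctrl and differed by -0.01. Ifi27, whose annotated interval lies inside that of Ifi27l2a, Ifi35 and Xaf1 differed by -0.04, -0.02 and 0.06.

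**Figure D2:**
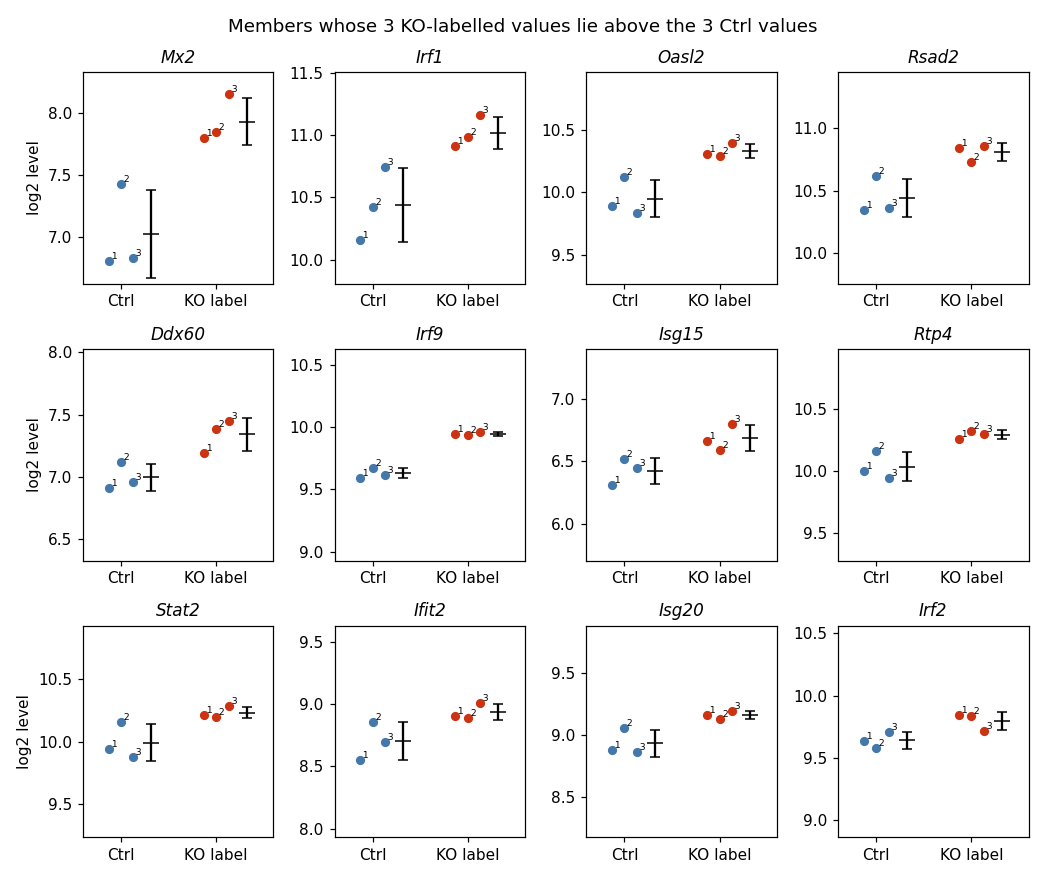
Each panel gives 1 of the 12 members whose groups did not overlap, as log2 level, with a dot per array marked by its replicate number and a bar for mean ± SD (n = 3). The vertical axis spans the same log2 range in every panel, and the gap is widest in Mx2 and narrowest in Irf2.

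**Figure D3:**
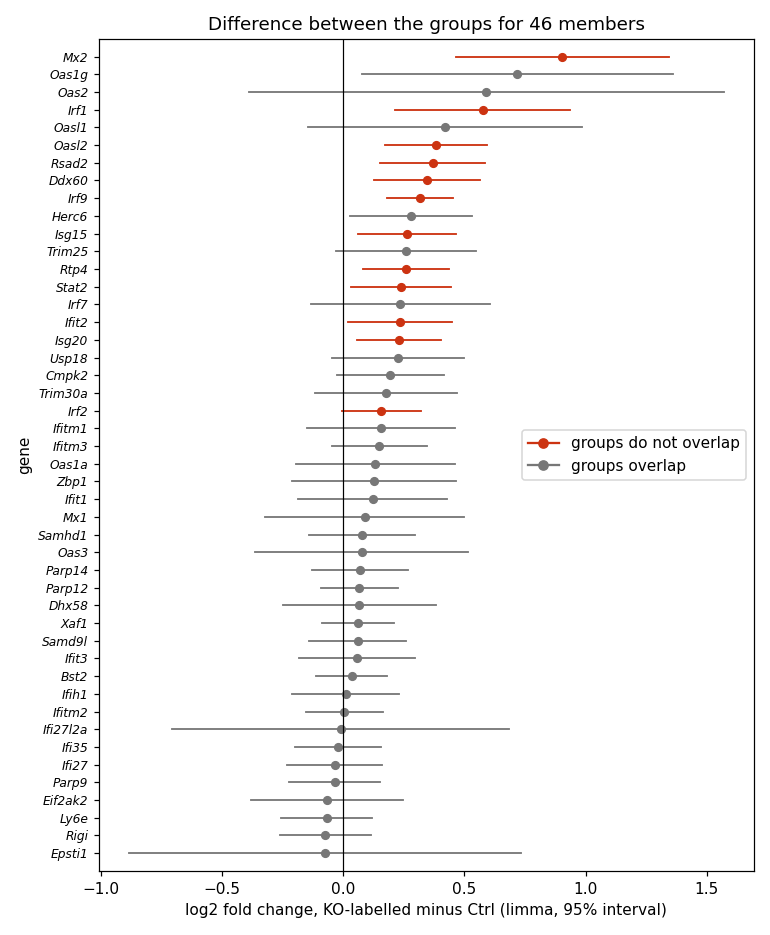
Each line is a member, with a dot for the log2 difference of KO-labelled minus Ctrl arrays and a bar for its 95% interval from limma. Red marks the 12 members whose groups did not overlap. The dots lie above 0 for 38 of 46 genes, and Oas2, Epsti1 and Ifi27l2a have the widest intervals.

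The controls did not form a uniform group for these genes. Averaged over the 46 members, the KO-labelled arrays read 8.93, 8.98 and 9.03 and the Ctrl arrays 8.65, 8.99 and 8.75. Ctrl 2 thus lay within the KO-labelled range, and Ctrl 1 and Ctrl 3 below it. Ctrl 2 exceeded Ctrl 1 in 40 members (87%, against 46.1% of all genes) and Ctrl 3 in 40 (87%, against 49.5%). Ctrl 1 lay below all 3 KO-labelled arrays in 37 members (80.4%, against 26.7% of all genes) and Ctrl 3 in 31 (67.4%, against 29.2%), but Ctrl 2 in only 14 (30.4%, against 30.1%). The SD was larger over Ctrl than over KO-labelled arrays in 39 members (84.8%, against 55.1% of all genes).

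The counts moved with the arrays used, in both groups. Without Ctrl 2, 23 members were higher at an unadjusted p of 0.05 (4.6% of all genes), 30 did not overlap (13.1% of all genes) and the median difference was 0.27. Without Ctrl 1, 7 were higher at that p (6.21% of all genes), 12 did not overlap upwards (15.8% of all genes) and 2 downwards (14.4%), and the median was 0.09. Without KO-labelled 3, 8 members were higher at that p (4.15% of all genes) and the median was 0.15. No member passed the adjusted threshold in limma with any of the 6 arrays left out. Irf9 was among the steadiest members, at 0.30 to 0.34 over the 6 omissions, and Mx2 ran from 0.79 to 1.11.

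Markers of macrophages, which share the sinusoid and can adhere to LSECs during isolation, varied among the arrays in nearly the same order. The mean of 13 markers was 8.69, 9.43 and 9.77 in KO-labelled arrays and 7.55, 9.67 and 8.96 in Ctrl. All 13 had differences above 0, with a median of 0.45. At an unadjusted p of 0.05 in limma 1 of them was higher (7.69%, against 5.87% of all genes). This was the scavenger receptor Marco (difference 2.24), also the only 1 whose groups were apart (7.69%, against 8.71% of all genes). None of the 13 was near the bottom of the scale, and the lowest was Adgre1, which encodes F4/80, at 5.91 in Ctrl 1. Ctrl 1 was thus lowest, and KO-labelled 3 and Ctrl 2 highest, both for macrophage markers and for the mean of the members. Fewer cells of a type and less RNA per cell cannot be told apart in bulk samples.

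With the macrophage marker mean as a covariate, an alternative chosen after seeing the data, the median difference of the members was 0.08. At an unadjusted p of 0.05, 10 members were higher (5.84% of all genes) and 1, Epsti1, was lower (5.11% of all genes), and none passed the adjusted threshold in limma. The differences of Mx2, Irf9, Oasl2 and Rsad2 were then 0.76, 0.30, 0.34 and 0.32, against 0.90, 0.32, 0.38 and 0.37 without the covariate. Those of Oas2, Oasl1 and Irf7 were 0.21, 0.20 and 0.08, against 0.59, 0.42 and 0.23. The 8 neutrophil markers averaged 5.74, 5.10 and 6.55 in KO-labelled and 4.96, 5.17 and 5.38 in Ctrl arrays, and none reached an unadjusted p of 0.05. Of 8 markers of plasmacytoid dendritic cells, a major source of IFN-α, 2 had KO-labelled values above all Ctrl values (25%, against 8.71% of all genes). The 8 include the member Bst2, and 2 of them had differences below 0. Cox6a2 (difference 0.19, unadjusted p = 0.0226 in limma) was apart but lay below the array median, at 4.15 to 4.45. Tcf4 (0.05) was apart at 10.83 to 10.95. The defining marker Siglech read 4.89 to 5.37 over the 6 arrays, near the array median. Of 10 monocyte and dendritic markers 3 had differences above 0 and 7 below, with a median of -0.09. The groups were apart upwards in 1 (10%, against 8.71% of all genes) and downwards in 0. This was Clec9a of conventional dendritic cells, at 8.78, 8.35 and 8.73 against 8.01, 8.05 and 7.80 (0.67, limma adjusted p = 0.209). Xcr1, Flt3 and Itgax differed by 0.06, -0.13 and -0.36, with overlap.

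Some endothelial and B cell markers also read higher or lower in KO-labelled arrays, but none passed the adjusted threshold in limma. Of 10 markers of continuous endothelium 1 was apart upwards and 3 downwards, against 8.71% and 8.73% of all genes. Ackr1 of venules was apart upwards by 0.97 (limma adjusted p = 0.0901). Vwf was apart downwards, by -0.97 (adjusted p = 0.437), with Ctrl 1 at 10.88. Apln and Emcn were also apart downwards, by -0.41 (adjusted p = 0.316) and -0.12 (adjusted p = 0.563). Of the 14 LSEC markers 0 were apart upwards and 2 downwards (14.3%, against 8.73% of all genes). These were Cd209b, by -0.35 (adjusted p = 0.269), and Gata4, by -0.10 (adjusted p = 0.574). Of 6 B and plasma cell markers, 2 were lower at an unadjusted p of 0.05 in limma (33.3%, against 5.33% of all genes) and 0 higher. These were Ms4a1 and Pax5, with differences of -0.94 and -0.57 and overlap. Of 12 T and NK markers 1 was lower at that p (8.33%), Cd8a (-0.23). Of the hepatocyte markers 1 was lower at that p (9.09%), Hnf4a (-0.34). In both of these lists 0 were higher at that p. The 11 hepatocyte markers averaged 7.78, 8.83 and 7.68 in KO-labelled and 7.90, 8.86 and 8.13 in Ctrl arrays, highest in Ctrl 2. Ctrl 1 was also lowest for the means of the stellate cell, T and NK, and monocyte and dendritic markers. The part of these cell types and of neutrophils in the members' values was not tested.

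**Figure D4:**
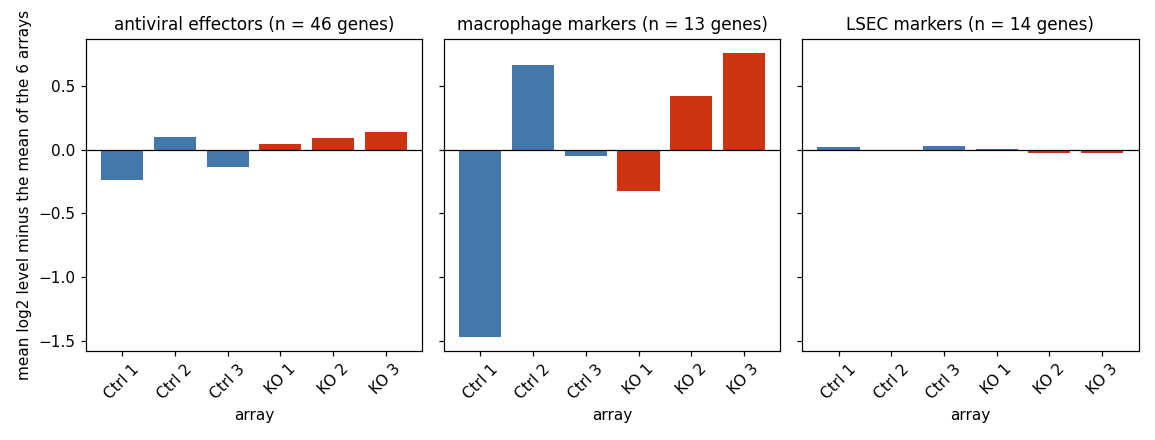
Bars give, for each array, the mean log2 level of a gene list minus its mean over the 6 arrays, with Ctrl in blue and KO-labelled in red. The lists are the 46 effector genes, 13 macrophage markers and 14 LSEC markers that include Lyve1. Ctrl 1 is lowest and Ctrl 2 above 0 in the panels of effectors and macrophage markers, and the LSEC markers vary little.

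Upstream of the effectors few genes differed at an unadjusted p of 0.05, where 5.87% of all genes were higher and 5.33% lower. Of 9 receptor subunits and kinases, 0 reached an unadjusted p of 0.05 in either direction and the median difference was -0.01. Ifnar1 differed by -0.00 (95% interval -0.17 to 0.17), Ifnar2 by -0.01 (-0.16 to 0.14), Jak1 by -0.09 (-0.24 to 0.07) and Tyk2 by -0.06 (-0.23 to 0.10). Il10rb and Ifngr2, subunits of the receptors for type III interferon and IFN-γ, lay lower in all 3 KO-labelled arrays, by -0.15 and -0.12. These 2 of 9 were apart downwards (22.2%, against 8.73% of all genes), and 0 were apart upwards.

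Of 17 interferon ligands 1 was higher at an unadjusted p of 0.05 (5.88%, against 5.87% of all genes) and 0 were lower. In mean level 5 lay above the array median. Ifnb1, often the first ligand made, read 3.39, 3.55 and 3.84 in KO-labelled arrays and 3.40, 3.63 and 3.72 in Ctrl, near the bottom of the scale. Ifna4 read 6.55, 6.22 and 6.73 against 6.12, 6.30 and 6.10, a difference of 0.33 with overlap (limma adjusted p = 0.437). Ifng, the type II ligand of T and NK cells, differed by 0.50 (95% interval -0.10 to 1.09).

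Of 15 genes that induce interferon, 0 were higher and 1 was lower at an unadjusted p of 0.05 (6.67%, against 5.33% of all genes). This was Mavs, the mitochondrial adaptor of RIG-I and MDA5, at 10.30, 10.21 and 10.20 against 10.38, 10.41 and 10.39 (difference -0.16, limma adjusted p = 0.417). Ikbke and Tbk1, kinases that activate IRF3, had KO-labelled values above all Ctrl values, by 0.18 and 0.07 (2 of 15, 13.3%, against 8.71% of all genes). Irf3, the factor that first switches on IFN-β, differed by 0.05 (95% interval -0.09 to 0.19).

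At an unadjusted p of 0.05, 3 of 11 negative regulators were higher and 0 lower, against 5.87% and 5.33% of all genes, and the median difference was 0.21. The groups were apart upwards in the same 3 and downwards in Ptpn11, the phosphatase SHP2 (-0.12). Trex1, which degrades cytosolic DNA, read 6.02, 6.36 and 6.23 against 5.84, 5.71 and 5.84 (difference 0.41, limma adjusted p = 0.265). Tnfaip3, the NF-κB inhibitor A20, read 9.56, 9.76 and 10.12 against 8.57, 9.32 and 9.52 (0.67, adjusted p = 0.419). Nlrc5, also the transactivator of MHC class I genes, differed by 0.30 (adjusted p = 0.339). Over the 4 pathway lists 4 of 52 genes were higher and 1 was lower at an unadjusted p of 0.05 (7.69% and 1.92%), and 0 passed the adjusted threshold.

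Of the neighbouring IFN-inducible GTPases, 2 of 5 IRG genes and 1 of 10 guanylate-binding protein genes were higher at an unadjusted p of 0.05 in limma, and 0 were lower, against 5.87% and 5.33% of all genes. Irgm1, which regulates the IRG proteins on vacuoles, read 10.42, 10.34 and 10.51 in KO-labelled arrays and 9.93, 10.05 and 10.06 in Ctrl (difference 0.41, adjusted p = 0.182). Gbp4, the guanylate-binding gene with the smallest p, was apart upwards (difference 0.23, adjusted p = 0.382), and Gbp2 was apart downwards (-0.16, adjusted p = 0.469). IFN-γ induces both families more strongly than type I interferon does.

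**Figure D5:**
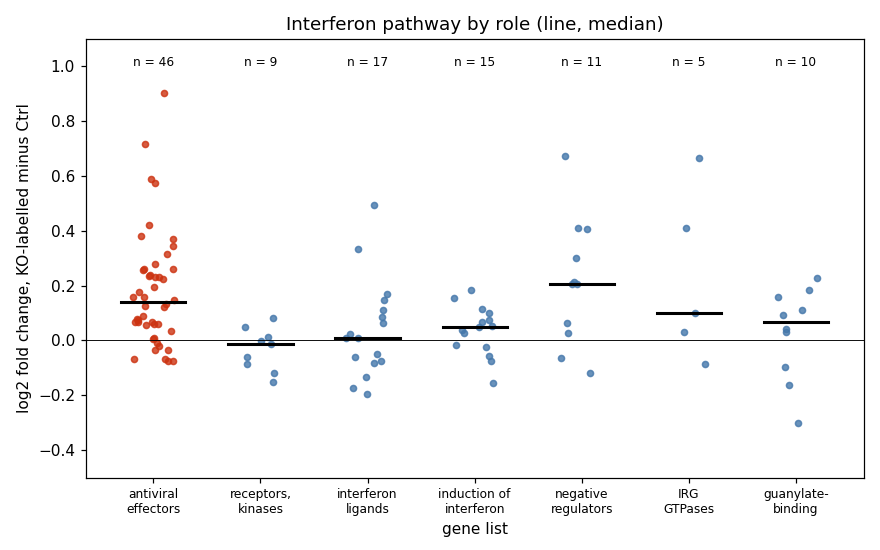
Each dot is a gene, placed by its log2 difference of KO-labelled minus Ctrl arrays, in the effector list (red) and 6 related lists (blue), with a line at each median. The medians are 0.14 for the effectors, -0.01 for receptors and kinases and 0.21 for negative regulators.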

How the data were processed

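LSECs were isolated by collagenase perfusion, a Nycodenz gradient and anti-CD146 magnetic sorting, pooled from 3 mice, and their RNA was hybridised to Affymetrix MoGene-2_0-st arrays. A custom chip definition let the authors assign probes to Entrez genes, intensities were quantile-normalised, and the deposited values are log2 levels. The submitters' processing notes name RMA. Genes were named from the platform's symbols (23281 of 24479 have 1 symbol and 1198 none). Depth does not apply to arrays, and 3 arrays per group limit the precision.

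Groups were compared with limma 3.58.1 in R 4.3.3 (lmFit, eBayes) over all genes without a filter, with Benjamini-Hochberg adjustment and a threshold of 0.05. The script was tested on simulated data. The methods' own test was run as an alternative. The others were the replicate block, cyclic loess, centring on genes of middle level, a filter at the 40th percentile of level, eBayes with trend and robust variance, array weights, a covariate and leaving out each array. The members and lists were chosen with earlier results of these data known. Values per array are given for members with an unadjusted p under 0.05 or without overlap, and in each role for those with the largest difference and the highest level. Neither labels nor methods state a pairing of the pools, and the main fit used none. Only the replicate block took replicate numbers to pair the pools. Deviations of same-numbered arrays from their group means correlated weakly, at 0.206, 0.134 and 0.124. Those of differently numbered arrays correlated at -0.218 to 0.0432. Protein sequences were not analysed here.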

Additional observations from a re-analysis of the deposited data

How the results depend on the processing

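No member passed the adjusted threshold under any alternative. With the replicate block 0 members passed it, as without the block. At an unadjusted p of 0.05, 13 were higher with the block and 13 without (5.78% and 5.87% of all genes), of which 12 were shared. With the block Herc6 no longer met that p, and Trim25 did. The lowest adjusted p of a member ran from 0.0714 (Irf9, eBayes with trend and robust variance, where 49 genes of the whole table passed) to 0.515. The count higher at an unadjusted p of 0.05 was 9 with the methods' test (5.18% of all genes) and 16 with trend and robust variance (5.65%). It was 13 or 14 with the block, cyclic loess, centring, the filter and array weights (5.78% to 6.99% of the genes tested).

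Leaving out each array moved that count between 7 (without Ctrl 1, 6.21% of all genes) and 23 (without Ctrl 2, 4.6% of all genes). The count without overlap ran from 12 to 30 higher (12.2% to 15.8% of all genes) and from 0 to 2 lower (12.7% to 14.7%). The median difference ran from 0.0929 to 0.272. The sign turned for 14 members whose differences lay near 0. Their ranges were -0.084 to 0.0723 for Ifih1, -0.0511 to 0.194 for Dhx58, -0.0177 to 0.128 for Ifit3, -0.0382 to 0.289 for Oas3, -0.0339 to 0.261 for Mx1, -0.0326 to 0.0397 for Ifitm2 and -0.21 to 0.0573 for Eif2ak2. They were -0.000977 to 0.131 for Samd9l, -0.00293 to 0.0557 for Bst2, -0.0703 to 0.0322 for Parp9, -0.0563 to 0.0452 for Ifi35, -0.0866 to 0.0228 for Ifi27, -0.263 to 0.283 for Ifi27l2a and -0.45 to 0.227 for Epsti1.

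With array weights Ifih1 was at -0.0167 and Ifitm2 at -0.000664. With the macrophage covariate, added after seeing the data, 1 member was lower at an unadjusted p of 0.05, and Ifih1, Dhx58, Oas3 and Mx1 were at -0.0628, -0.0588, -0.063 and -0.043. The cause was not tested. Mx1 lay below the array median, so a small difference there may not be measurable.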
